A study of Mus musculus with 46 samples.

Results

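The contractile filaments of heart muscle are built from a small set of myosin and actin isoforms, and 6 of their genes were followed here through the first days after coronary ligation: the myosin heavy chains Myh6 and Myh7, the ventricular myosin light chains Myl2 and Myl3, and the sarcomeric actins Acta1 and Actc1. A probe set belonged to a gene if the platform annotation gave it that symbol and no other, which left 9 probe sets for the 6 genes, of 12393 genes with such a probe set on the array. Myh6 had 2 probe sets, Myl3 had 3 and the other genes had 1 each. All 9 passed the filter on low values (above the median of the array in at least 3 arrays of a fit). The brightest probe set on average stands for its gene, and the others are given where they differ. The identifiers are 1448826_at for Myh6, 1448553_at for Myh7, 1448394_at for Myl2, 1427768_s_at for Myl3, 1427735_a_at for Acta1 and 1415927_at for Actc1.

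The hearts came from male mice, 15 to 20 weeks old, of the strains MRL/MpJ (MRL) and C57BL/6J (C57). They were taken 1 or 5 days after the left coronary artery had been tied, or from unoperated mice (day 0), so no group holds a sham operation. A biopsy punch divided each left ventricle into an infarct region, whose samples the labels call infarct and border, and a noninfarct region, the rest of the left ventricle; at day 0 the infarct region is the anterior-apical tissue that ligation would have reached. Total RNA of each region was hybridized to Affymetrix MOE430A arrays, 46 in all: the 12 groups of strain, day and region hold 4 arrays each, except the 3 of each C57 day 0 group. The labels call these arrays biological replicates but give no link between the arrays of the 2 regions of one heart.

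Force in the heart comes from myosin heads that pull on actin filaments. Myh6 encodes alpha myosin heavy chain, the fast isoform that dominates the adult mouse ventricle, and Myh7 encodes the slower beta isoform of the fetal ventricle, which returns in overloaded rodent hearts; the genes lie next to each other. Actc1 encodes cardiac alpha-actin, the main sarcomeric actin of the adult heart, and Acta1 encodes skeletal alpha-actin, which the fetal heart uses and the stressed rodent heart can turn on again. Myl2 and Myl3 encode the regulatory and the essential light chain that sit on the neck of the ventricular myosin heads.

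In mouse build GRCm38.p6 the RefSeq records place Myh6 at chr14:54941921-54968017 and Myh7 beside it at chr14:54970684-54994626. Myl2 lies at chr5:122092724-122113473, Myl3 at chr9:110763678-110769802, Acta1 at chr8:123891758-123894775 and Actc1 at chr2:114047282-114052875. The 250 bases before the transcription start (RefSeq, GRCm38.p6) are shown for the isoform pairs whose members moved differently in these data, Acta1 with Actc1 and Myh7 with Myh6. All 4 lie on the minus strand and read 5′ to 3′, with the start directly after the last base. Capitals mark the CArG box (the element bound by serum response factor), the M-CAT core CATTCC (bound by TEAD factors, here also as its complement GGAATG) and the TATA box TATAAA; both strands were searched, and no marked motifs overlap. The windows are chr8:123894776-123895025 for Acta1, chr2:114052876-114053125 for Actc1, chr14:54994627-54994876 for Myh7 (the first of 2 listed starts) and chr14:54966608-54966857 for Myh6, whose listed start lies inside the gene record.

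Acta1: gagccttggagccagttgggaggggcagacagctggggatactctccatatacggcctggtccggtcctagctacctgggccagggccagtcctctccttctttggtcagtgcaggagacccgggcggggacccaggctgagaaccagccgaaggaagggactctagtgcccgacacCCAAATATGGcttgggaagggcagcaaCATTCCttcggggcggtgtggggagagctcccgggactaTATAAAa
Actc1: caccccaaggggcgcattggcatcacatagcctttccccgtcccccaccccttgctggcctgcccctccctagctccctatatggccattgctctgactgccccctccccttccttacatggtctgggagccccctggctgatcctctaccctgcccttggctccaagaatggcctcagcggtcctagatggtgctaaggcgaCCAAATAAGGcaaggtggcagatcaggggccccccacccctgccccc
Myh7: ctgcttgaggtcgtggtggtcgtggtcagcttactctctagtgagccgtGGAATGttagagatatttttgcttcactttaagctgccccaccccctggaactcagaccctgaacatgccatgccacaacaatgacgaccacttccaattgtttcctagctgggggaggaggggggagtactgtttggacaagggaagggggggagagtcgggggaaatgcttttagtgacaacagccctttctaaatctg
Myh6: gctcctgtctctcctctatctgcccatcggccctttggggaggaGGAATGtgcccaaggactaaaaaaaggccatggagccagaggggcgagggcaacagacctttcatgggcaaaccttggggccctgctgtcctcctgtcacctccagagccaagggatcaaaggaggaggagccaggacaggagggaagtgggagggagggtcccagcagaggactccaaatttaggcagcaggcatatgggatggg

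A CArG box stood 73 to 64 bases before the start of Acta1 and 47 to 38 bases before that of Actc1, and the Myl3 window held one as well, at 85 to 76 bases. Of 32841 promoter windows of the same length, 482 (1.47%) held a CArG box. The M-CAT core occurred in the windows of Acta1, at 46 to 41 bases, of Myh6, at 206 to 201, and of Myh7, at 201 to 196, and at 2 places in that of Myl3; 12.6% of all windows held it. TATAAA stood 7 to 2 bases before the Acta1 start (12.4% of all windows). The site bound by MEF2 factors occurs in 0.509% of windows and was found in none of the windows of the 6 genes. A match to these letters is a description of the window and shows no binding.

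A pair of arrays stood apart from their groups on principal component 1 of the whole expression table, which separated most day 5 infarct arrays from the rest. The C57 day 5 noninfarct array of replicate 3 scored 99.1, while the others of its group lay between -30.2 and 35.3. The MRL day 5 infarct array of replicate 3 scored 11.03, while the others of its group lay between 108 and 116. The C57 day 5 infarct array of replicate 1, at 40.5, also lay away from the others of its group, at 98.8 to 117. Each array of the pair scored nearer to the other's group than to its own. The same held for log2 Acta1 minus log2 Actc1. That difference was -0.37 on the C57 array of the pair, against -3.30 to -1.68 on the others of its group. It was -1.82 on the MRL array, against -1.16 to -0.73 on the others of its group. Whether the labels of the pair were exchanged was not tested. The pair was found on a component that separates day 5 infarct arrays. Results without the pair are therefore checks and add no independent evidence for differences that involve its groups. The tissue carried its labels' muscle type: the mean log2 value of 20 other cardiomyocyte genes lay between 10.64 and 13.34 on every array, while the array medians lay between 4.22 and 4.48, and all 9 skeletal muscle markers, among them Myh1, Myh4 and Mylpf, lay below the array median on every array, with a summed intensity of 56.3 to 84.2.

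**Figure D1:**
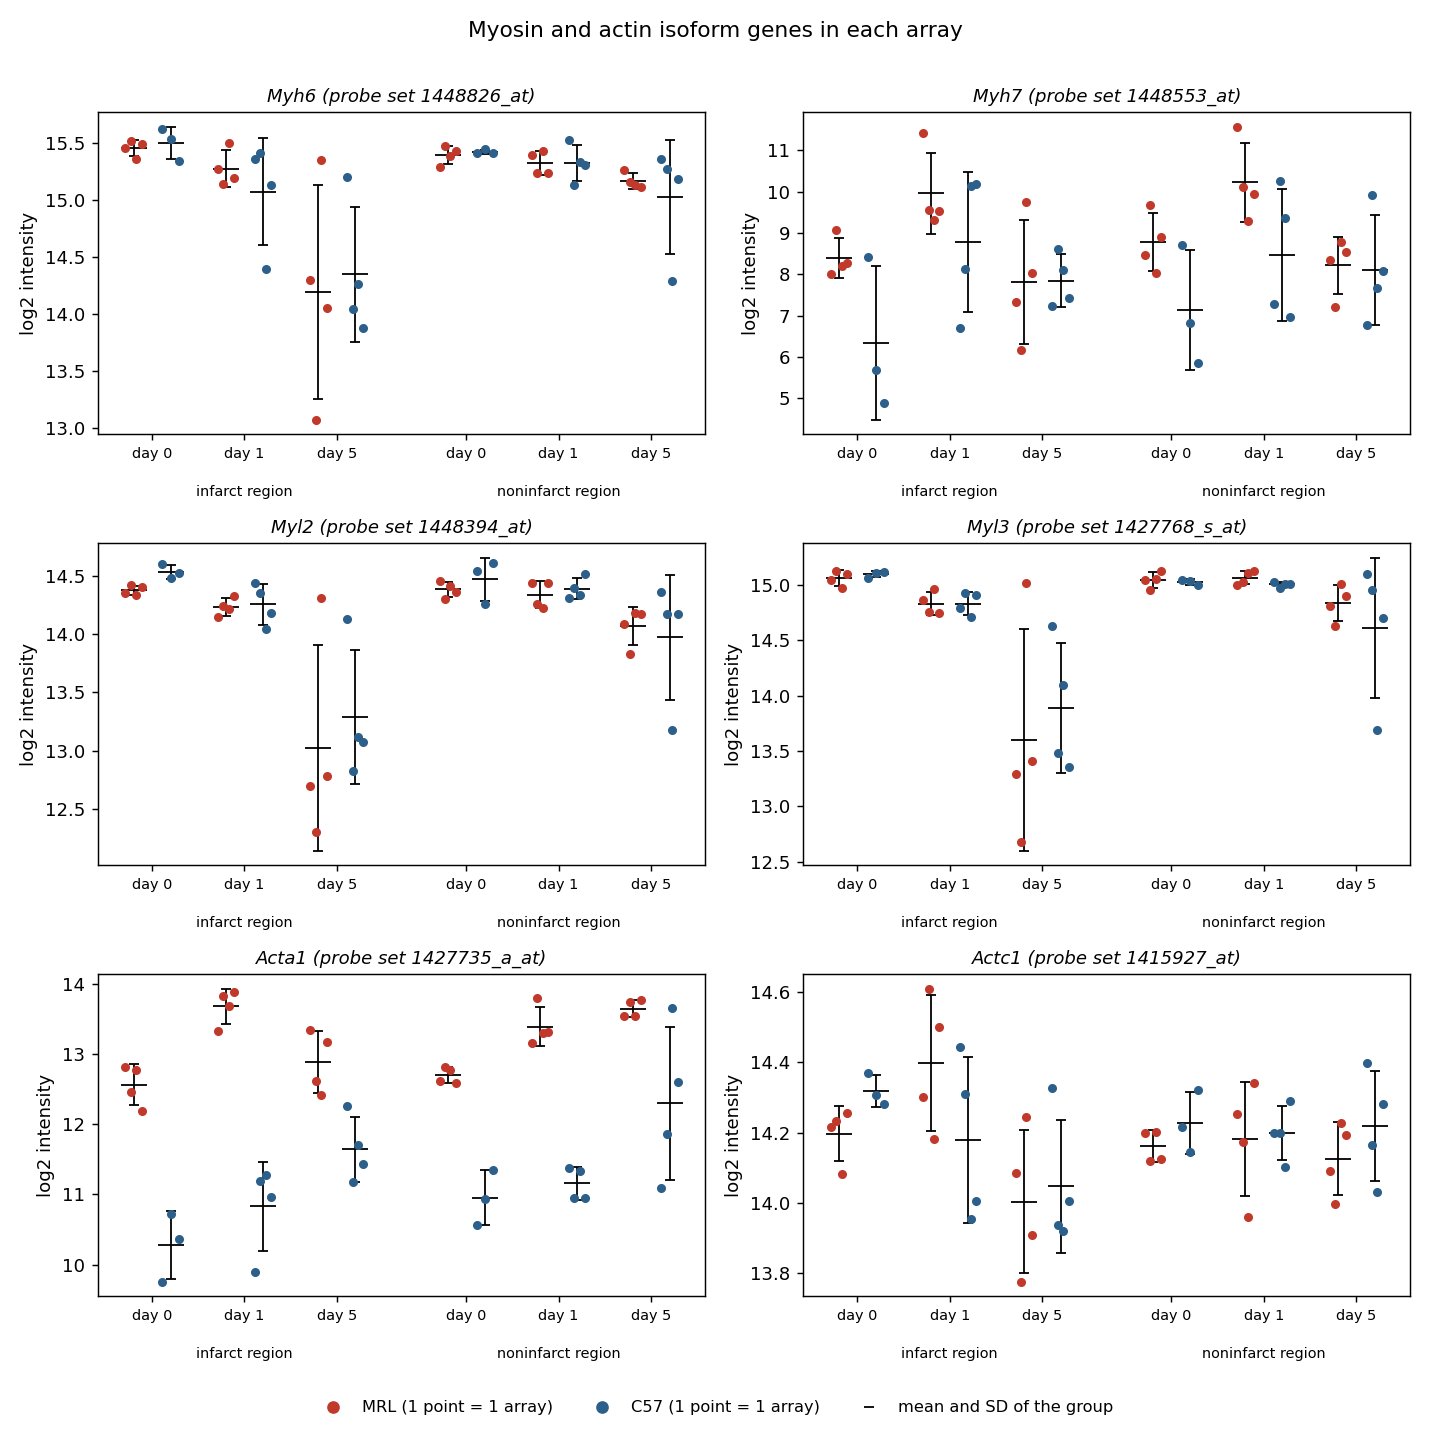
log2 intensity of the 6 genes (vertical axes, a scale of its own for each gene) in every array, by region and day on the horizontal axis. MRL is in red, left of C57 in blue, with points for arrays, bars for group means and whiskers for the SD (n = 4, and 3 for C57 at day 0). Acta1 is higher in MRL than in C57 at each day. The day 5 infarct groups of Myh6, Myl2 and Myl3 sit low, except for 1 MRL array near its day 0 level and 1 C57 array above the others of its group.

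The 6 genes covered very different ranges over the 46 arrays. On the log2 scale, Myh7 ran from 4.90 to 11.56, a span of 6.66, and Acta1 from 9.76 to 13.88, a span of 4.13. Myh6, Myl2 and Myl3 spanned 2.55, 2.31 and 2.45, with their lowest values at day 5; over the day 0 and day 1 arrays alone they spanned 1.23, 0.56 and 0.42. Actc1 spanned only 0.83, from 13.78 to 14.61. Myh6, Myl3 and Actc1 lay high on the scale, up to 15.62, 15.13 and 14.61. The highest intensity of any probe set was 54627.6 before log2 was taken. Whether values this high limit the size of a measured change was not tested. When the 12 group means of a gene were put in order, each of the 11 neighbouring pairs overlapped in the values of its arrays, for every gene. Levels of different genes are not compared, since each comes from probes of its own. Where groups are said not to overlap, this describes their arrays and carries no test. How many of all probe sets had groups without overlap was not counted.

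Alpha myosin heavy chain (Myh6) fell in the infarct region by day 5 in both strains, by 1.26 ± 0.34 on the log2 scale (SE) in MRL and by 1.15 ± 0.37 in C57, and was not called at day 1. In MRL infarct tissue the arrays read 15.45, 15.52, 15.36 and 15.49 at day 0, 15.27, 15.14, 15.50 and 15.19 at day 1, and 14.29, 13.07, 15.35 and 14.05 at day 5. In C57 infarct tissue they read 15.62, 15.53 and 15.34 at day 0, 15.35, 15.41, 14.39 and 15.13 at day 1, and 15.20, 14.05, 14.26 and 13.87 at day 5. Every day 5 array lay below every day 0 array of its strain, by a narrow margin for MRL replicate 3 and C57 replicate 1. The day 5 falls correspond to 2.40-fold lower in MRL and 2.22-fold lower in C57, with limma adjusted p of 0.0051 and 0.017. At day 5 limma called 46.9% of all probe sets tested in MRL infarct tissue and 42.7% in C57 (adjusted p under 0.05), so a call is common there; the median change over all probe sets was -0.05 in MRL and -0.00 in C57, beside -0.92 and -0.71 over the 6 genes. Without the MRL array that stood apart, the MRL fall was 1.65, and without C57 replicate 1 the C57 fall was 1.44. The C57 call was lost when the arrays were quantile normalized (-0.68, adjusted p 0.11) and when 1 of 3 single arrays was left out (day 0 replicate 1, day 5 replicate 2 or day 5 replicate 4; adjusted p up to 0.057).

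The other Myh6 probe set, 1417729_at, fell further in the same arrays. It read 12.88, 12.77, 12.70 and 12.94 at day 0 and 10.16, 8.66, 12.06 and 9.001 at day 5 in MRL infarct tissue, and 12.04, 12.30 and 12.40 at day 0 and 11.10, 8.55, 10.31 and 9.09 at day 5 in C57. The limma falls were 2.85 ± 0.73 in MRL (7.22-fold, adjusted p = 0.0034) and 2.48 ± 0.79 in C57 (5.59-fold, adjusted p = 0.016). The size of the Myh6 fall thus depends on the probe set, while its direction does not. A further 2 probe sets are assigned to both Myh6 and Myh7 and were not used; at day 5 in the infarct region they fell by 1.67 and 2.75 in MRL and by 1.30 and 2.37 in C57.

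In the noninfarct region the main Myh6 probe set was not called by limma. At day 5 it read 15.26, 15.15, 15.13 and 15.11 in MRL, against 15.28, 15.47, 15.38 and 15.43 at day 0. In C57 it read 15.36, 15.27, 14.28 and 15.18 at day 5, against 15.41, 15.44 and 15.41 at day 0. The C57 value of 14.28 comes from the array that stood apart, and neither strain passed the test, with changes of -0.23 in MRL and -0.40 in C57 (adjusted p 0.31 and 0.12); without that array the C57 change was -0.15. Its second probe set was called lower in MRL, by 1.10 ± 0.30 (limma adjusted p = 0.013): it read 11.80, 11.73, 12.01 and 11.93 at day 5, against 12.68, 13.18, 13.04 and 12.96 at day 0, with no overlap.

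Beta myosin heavy chain (Myh7) was the most variable of the 6 genes and was called in no comparison. Its highest values were at day 1. In MRL infarct tissue it read 8.00, 9.08, 8.20 and 8.28 at day 0, 11.43, 9.55, 9.31 and 9.54 at day 1, and 7.32, 6.17, 9.75 and 8.03 at day 5. In C57 infarct tissue it read 8.43, 5.69 and 4.90 at day 0, 6.69, 8.13, 10.14 and 10.17 at day 1, and 7.23, 8.62, 8.10 and 7.42 at day 5. The MRL day 1 arrays all lay above the MRL day 0 arrays, whereas in C57 the groups overlapped through day 0 replicate 1, which read far above the other 2.

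The Myh7 difference between day 1 and day 0 in the infarct region was 1.56 ± 0.81 in MRL (adjusted p = 0.17) and 2.44 ± 0.88 in C57 (adjusted p = 0.062) by limma. In C57 the adjusted p became 0.015, with a change of 3.49, when day 0 replicate 1 was left out, and 0.036 without the pair of arrays that stood apart. At day 5 it differed from day 0 by -0.57 ± 0.81 in MRL and by 1.50 ± 0.88 in C57 (adjusted p 0.58 and 0.17). Of the 6 genes, Myh7 was the 1 with an unadjusted p under 0.05 at day 1 in C57 infarct tissue, where 0 were called against 15.5% of all probe sets.

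In noninfarct tissue Myh7 read 8.47, 9.69, 8.04 and 8.90 at day 0, 11.56, 10.10, 9.30 and 9.93 at day 1, and 8.35, 7.21, 8.77 and 8.53 at day 5 in MRL. In C57 it read 8.72, 6.82 and 5.86 at day 0, 7.27, 10.26, 9.36 and 6.98 at day 1, and 6.77, 9.92, 7.67 and 8.07 at day 5. MRL replicate 1 was highest at day 1 in both regions, at 11.43 and 11.56. At day 1 the difference from day 0 was 1.45 ± 0.75 in MRL and 1.33 ± 0.81 in C57, and neither passed the test (adjusted p 0.44 and 0.42 by limma). None of the 6 genes was called at day 1 in noninfarct tissue in either strain, and none had an unadjusted p under 0.05; 0.98% of all probe sets were called in MRL and 3.99% in C57.

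The regulatory light chain Myl2 and the essential light chain Myl3 fell in infarct tissue by day 5 in both strains. Myl2 fell by 1.35 ± 0.31 in MRL and by 1.25 ± 0.33 in C57, and Myl3 by 1.46 ± 0.33 in MRL and by 1.21 ± 0.36 in C57. Myl2 read 14.35, 14.42, 14.33 and 14.40 at day 0, 14.14, 14.24, 14.21 and 14.33 at day 1, and 12.70, 12.30, 14.31 and 12.78 at day 5 in MRL infarct tissue. In C57 infarct tissue it read 14.60, 14.48 and 14.53 at day 0, 14.44, 14.35, 14.05 and 14.18 at day 1, and 14.13, 12.82, 13.11 and 13.08 at day 5. Apart from MRL replicate 3, which had nearly its day 0 level, and C57 replicate 1, the day 5 arrays stood well below the rest.

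For Myl2 the day 5 fall was 2.55-fold in MRL and 2.38-fold in C57 (limma adjusted p 0.0013 and 0.0050), without overlap in either strain. For Myl3 it was 2.75-fold in MRL, where replicate 3 at 15.02 lay within the day 0 range of 14.97 to 15.13, and 2.31-fold in C57, where no array overlapped (adjusted p 0.0013 and 0.011). These 4 calls held when any single array was left out, and without the MRL array that stood apart the MRL falls were 1.78 for Myl2 and 1.93 for Myl3. Without C57 replicate 1 the C57 falls were 1.53 for Myl2 and 1.45 for Myl3. Both other Myl3 probe sets fell too: 1427769_x_at by 1.94 in MRL and 2.33 in C57, and 1428266_at by 1.87 in MRL and 1.77 in C57 (adjusted p 0.00044, 0.00024, 0.0022 and 0.0066 by limma).

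Most of the light chain fall came after day 1. From day 1 to day 5 in infarct tissue, Myl2 fell by 1.21 ± 0.31 in MRL and by 0.97 ± 0.31 in C57, and Myl3 by 1.23 ± 0.33 and by 0.94 ± 0.33 (limma adjusted p 0.0066, 0.020, 0.0097 and 0.033). Both C57 calls were lost when single arrays were left out, for 4 of 8 arrays with Myl2 and 5 of 8 with Myl3. Over the same interval Myh6 was called in MRL, where it fell by 1.08 ± 0.34 (adjusted p = 0.024), and not in C57 (-0.73, adjusted p = 0.11); the MRL call was lost when 1 of 3 single arrays was left out, with the other probe set (adjusted p = 0.059), and the difference between the strains was not tested over this interval. Of all probe sets, 30.1% were called between day 5 and day 1 in MRL infarct tissue and 34.2% in C57.

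In the noninfarct region the light chains were not called by their main probe sets. At day 5 Myl2 read 14.09, 13.83, 14.18 and 14.17 in MRL, against 14.46, 14.30, 14.41 and 14.36 at day 0, a difference of -0.32 (limma adjusted p = 0.20). In C57 it read 14.36, 14.17, 13.18 and 14.17 at day 5, against 14.54, 14.26 and 14.61 at day 0, a difference of -0.50 (adjusted p = 0.071), in which the lowest value is that of the array that stood apart; without it the difference was -0.23. Single Myl3 probe sets passed here, 1427769_x_at in MRL with a fall of 0.66 ± 0.23 (adjusted p = 0.044) and 1428266_at in C57 with a fall of 0.77 ± 0.24 (adjusted p = 0.029), while the main probe set of Myl3 did not.

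Skeletal alpha-actin (Acta1) was the only 1 of the 6 genes called higher after ligation, and also the only 1 called between the strains. It was above its day 0 mean in all 8 comparisons with day 0 and passed the test in 4 of them. In MRL infarct tissue the arrays read 12.82, 12.47, 12.78 and 12.20 at day 0, 13.33, 13.84, 13.69 and 13.88 at day 1, and 13.35, 12.62, 12.42 and 13.18 at day 5. In C57 infarct tissue they read 9.76, 10.72 and 10.37 at day 0, 9.90, 11.20, 11.27 and 10.97 at day 1, and 12.26, 11.18, 11.71 and 11.44 at day 5. The MRL day 1 arrays lay above all MRL day 0 arrays and the C57 day 5 arrays above all C57 day 0 arrays, while MRL day 5 overlapped MRL day 0.

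In MRL infarct tissue Acta1 was 2.18-fold higher at day 1 than at day 0 (log2 1.12 ± 0.30, limma adjusted p = 0.013), where 21.5% of all probe sets were called, and 0.33 ± 0.30 higher at day 5 (adjusted p = 0.39). In C57 infarct tissue it was 0.55 ± 0.33 higher at day 1 (adjusted p = 0.27) and 2.58-fold higher at day 5 (log2 1.37 ± 0.33, adjusted p = 0.0025). The MRL day 1 and the C57 day 5 calls held when any single array was left out. Between day 5 and day 1 the difference was -0.79 ± 0.30 in MRL (adjusted p = 0.052) and 0.81 ± 0.30 in C57 (adjusted p = 0.043), the C57 call being lost when 1 of 5 single arrays was left out. The test of the difference between the strains' changes from day 0 called none of the 6 genes in either region: for Acta1 it gave 0.57 at day 1 and -1.04 ± 0.45 at day 5 in infarct tissue, with adjusted p of 0.9996 and 0.9999. At day 5 in infarct tissue Acta1 was the 1 gene of the 6 with an unadjusted p under 0.05, and 0.156% of all probe sets were called there; at day 1, and at both days in noninfarct tissue, 0 genes had one, and 0.0468%, 0.0081% and 0.0081% of all probe sets were called.

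In noninfarct tissue Acta1 read 12.63, 12.82, 12.78 and 12.59 at day 0, 13.17, 13.80, 13.30 and 13.31 at day 1, and 13.55, 13.74, 13.55 and 13.77 at day 5 in MRL. In C57 it read 10.57, 10.94 and 11.36 at day 0, 11.38, 10.95, 11.34 and 10.95 at day 1, and 11.09, 11.87, 13.66 and 12.60 at day 5. All MRL day 1 and day 5 arrays lay above the MRL day 0 arrays; in C57 only day 5 spread upward, and its highest value is that of the array that stood apart.

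At day 5 Acta1 was 1.93-fold higher than at day 0 in MRL noninfarct tissue (log2 0.95 ± 0.34, limma adjusted p = 0.044) and 2.55-fold higher in C57 (log2 1.35 ± 0.36, adjusted p = 0.015), where 24.2% and 21.1% of all probe sets were called. The MRL call was lost whenever 1 of the 8 arrays was left out (adjusted p 0.066 to 0.10), although the change itself stayed between 0.91 and 0.99. The C57 change was 0.90 without the array that stood apart, still called, and the call was lost without day 0 replicate 1 (adjusted p = 0.064). Against day 1, the day 5 arrays of C57 noninfarct tissue were 1.15 ± 0.34 higher (adjusted p = 0.019; 22.4% of all probe sets called), and without the array that stood apart 0.70, no longer called (adjusted p = 0.072). In MRL noninfarct tissue none of the 6 genes was called between day 5 and day 1 (12% of all probe sets called).

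**Figure D2:**
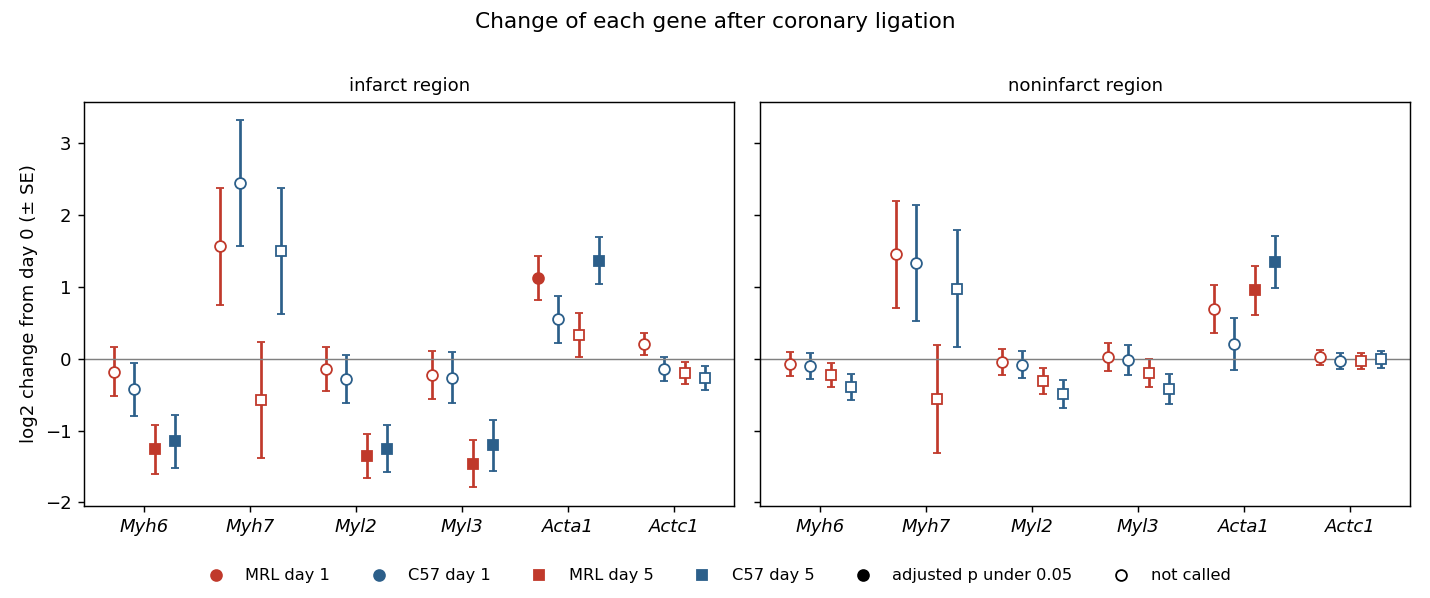
log2 change from day 0 (vertical axis) of the 6 genes at day 1 (circles) and day 5 (squares), by region, with MRL in red left of C57 in blue. Whiskers are the SE of the limma fit and filled symbols have an adjusted p under 0.05; in infarct tissue Myh6, Myl2 and Myl3 are filled on the negative side at day 5 in both strains, and Acta1 is the only gene filled on the positive side.

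Cardiac alpha-actin (Actc1) passed the test in none of the 28 comparisons. In MRL infarct tissue it read 14.22, 14.23, 14.08 and 14.26 at day 0, 14.30, 14.61, 14.18 and 14.50 at day 1, and 14.09, 13.78, 14.24 and 13.91 at day 5. In C57 infarct tissue it read 14.37, 14.31 and 14.28 at day 0, 14.44, 14.31, 13.95 and 14.01 at day 1, and 14.33, 13.94, 13.92 and 14.004 at day 5. The day 1 and day 5 groups overlapped the day 0 group of their strain; between the strains, the day 0 infarct arrays of MRL all lay below those of C57, by -0.12 on average, which was not called. At day 5 its difference from day 0 was -0.19 ± 0.15 in MRL and -0.27 ± 0.17 in C57 in infarct tissue (limma adjusted p 0.31 and 0.19). Its largest difference was -0.39 ± 0.15 between day 5 and day 1 in MRL infarct tissue (adjusted p = 0.056).

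MRL hearts held more Acta1 signal than C57 hearts before and after ligation. At day 0 the difference was 2.28 ± 0.33 in infarct tissue, 4.87-fold, and 1.75 ± 0.36 in noninfarct tissue, 3.36-fold (limma adjusted p 0.00034 and 0.0099). At day 1 it was 2.85 ± 0.30, 7.23-fold, in infarct tissue and 2.24 ± 0.34, 4.72-fold, in noninfarct tissue (adjusted p 1.3e-05 and 0.00033). In these 4 comparisons the lowest MRL array lay above the highest C57 array. The share of all probe sets without such overlap was not counted. Calls were few there: 1.07% and 0.997% of all probe sets in infarct tissue at day 0 and day 1, and 1.8% and 2.77% in noninfarct tissue. The noninfarct day 0 call was lost without C57 day 0 replicate 1 (adjusted p = 0.081), and the other 3 held whichever array was left out.

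At day 5 Acta1 was 1.24 ± 0.30 higher in MRL than in C57 in infarct tissue, again with no overlap, and 1.35 ± 0.34 higher in noninfarct tissue, where the C57 array that stood apart overlapped the MRL arrays. Neither passed the test (adjusted p 0.067 and 0.0504 by limma; 0.686% and 1.25% of all probe sets called). Without the pair of arrays that stood apart both were called, with 1.40 in infarct tissue (adjusted p = 0.016) and 1.80 in noninfarct tissue (adjusted p = 9.5e-05). In the order of group means all 6 MRL groups of Acta1, from 12.57 ± 0.29 at day 0 to 13.69 ± 0.25 at day 1 in infarct tissue (SD, n = 4), ranked above all 6 C57 groups, whose means lay between 10.28 and 12.30. Acta1 has 1 probe set on this array, so the difference could not be checked on another.

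No other gene of the 6 was called between the strains. Myh7 had the widest differences, 2.05 ± 0.88 in infarct and 1.64 ± 0.81 in noninfarct tissue at day 0 (limma adjusted p 0.62 and 0.61), 1.17 and 1.76 at day 1, and -0.02 and 0.11 at day 5. The differences of Myh6, Myl2, Myl3 and Actc1 between MRL and C57 lay between -0.29 and 0.23 in all 6 comparisons. In all, 4 of 36 tests between the strains passed, each of them for Acta1.

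Between the regions, genes were called at day 5 in MRL, and whether the strains differ in this contrast was not tested. In MRL at day 5 infarct tissue held less than noninfarct tissue of Myh6 (-0.97 ± 0.28), Myl2 (-1.04 ± 0.25) and Myl3 (-1.24 ± 0.28), with limma adjusted p of 0.018, 0.0091 and 0.0063 where 14% of all probe sets were called. In C57 the same differences were -0.68, -0.69 and -0.72 (adjusted p 0.099, 0.075 and 0.084; 8.53% of all probe sets called), and none of the 6 genes was called, with 3 at an unadjusted p under 0.05. Without the pair of arrays that stood apart the C57 differences were -0.93, -0.95 and -1.03 and were called (limma adjusted p 0.0019, 0.00010 and 6.2e-05). The MRL differences were then -1.36, -1.47 and -1.71. The pair was picked by its place between these tissues on principal component 1, so its removal favours a larger difference between the regions. These p-values are therefore no independent evidence. With the replicate number as a block for the heart, which the labels do not state, Myl2 and Myl3 were called in C57 as well (adjusted p 0.032 and 0.040), Myh6 was not (adjusted p 0.051), and the MRL calls stayed. All 3 MRL calls were lost without MRL day 5 infarct replicate 2, those of Myh6 and Myl2 without replicate 1, and that of Myh6 without replicate 4.

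At day 0 and day 1 none of the 6 genes was called between the regions in either strain, and none had an unadjusted p under 0.05. Of all probe sets, 0.0304% were called in MRL and 0% in C57 at day 0, and 9.28% in MRL and 7.31% in C57 at day 1. Acta1 differed by -0.76 ± 0.33 between infarct and noninfarct tissue in MRL at day 5 (adjusted p = 0.11). The regions also differed in atrial markers: the mean log2 value of 6 of them was 4.98 to 5.08 in infarct and 7.20 to 7.83 in noninfarct tissue of MRL at day 0, and their part in the differences between regions was not tested.

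The falls in infarct tissue came with large changes of other cell types' markers. All 9 fibroblast markers and all 10 macrophage markers rose at day 5 in both strains. The summed fibroblast intensity was 36226 to 88856 at day 5 against 8334 to 10472 at day 0 in MRL, and 61995 to 81248 against 6590 to 8035 in C57. The summed macrophage intensity was 3291 to 22361 at day 5 against 668 to 843 at day 0 in MRL, and 8327 to 19732 against 1069 to 1185 in C57. In noninfarct tissue at day 5, where Acta1 rose, 8 of 9 fibroblast and 10 of 10 macrophage markers rose in each strain, with a summed fibroblast intensity of 49944 to 52686 against 9011 to 12123 at day 0 in MRL and of 22373 to 83295 against 8720 to 10148 in C57. At day 1 in infarct tissue 3 of 4 tested neutrophil markers rose in each strain, with a summed intensity of 1553 to 3595 against 63.3 to 69.9 at day 0 in MRL and of 4453 to 6477 against 64.2 to 71.8 in C57. The Gapdh control probe sets, whose 3′ minus 5′ difference is read as a sign of RNA quality, gave -0.13 to -0.0014 at day 5 against -0.28 to -0.18 at day 0 in MRL infarct tissue, and -0.08 to 0.73 against -0.22 to -0.14 in C57. The part of these cells and of RNA quality in the changes was not tested, and in bulk tissue fewer muscle cells and less RNA of a gene per muscle cell cannot be told apart. The balance of isoforms on the same array, and each gene's value minus the mean of other cardiomyocyte genes, were therefore also compared; a difference between probe sets carries no level of its own, so only its change is read.

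**Figure D3:**
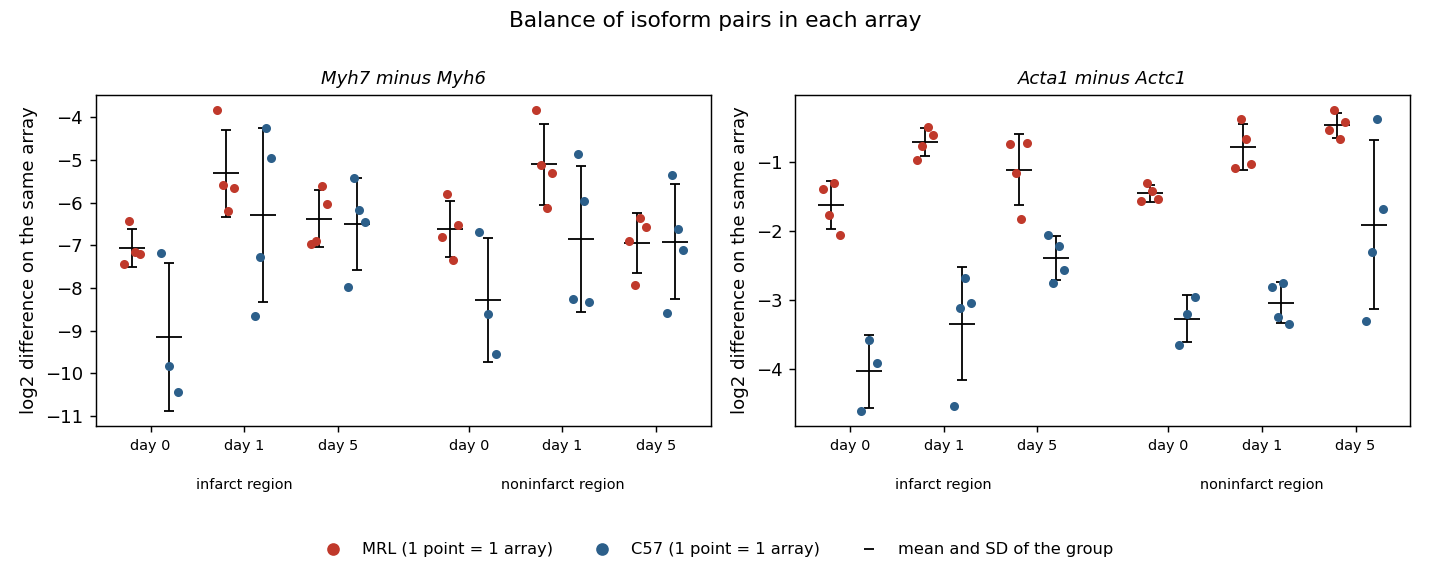
Isoform balances on each array: log2 Myh7 minus log2 Myh6 and log2 Acta1 minus log2 Actc1 (vertical axes), by region and day, with MRL in red left of C57 in blue, points for arrays, bars for means and whiskers for the SD. Only changes along an axis can be read; the actin balance of the MRL arrays is higher than that of the C57 arrays at day 0 and day 1 in both regions.

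The balance of Myh7 to Myh6 moved toward Myh7 in infarct tissue. Averaged over the strains it was 2.31 higher at day 1 than at day 0 (1.75 in MRL and 2.87 in C57) and 1.67 higher at day 5 (0.69 in MRL and 2.65 in C57). Both passed an exact permutation test that exchanged the days within each strain (two-sided, adjusted p = 0.0343 for each, over 12 tests). With the other Myh6 probe set the changes were 3.21 and 3.13 (adjusted p 0.0343 and 0.0147, exact permutation test). In noninfarct tissue the changes were 1.48 at day 1 (1.52 in MRL and 1.43 in C57) and 0.52 at day 5 (-0.33 in MRL and 1.37 in C57), neither of which passed (adjusted p 0.0655 and 0.44, exact permutation test).

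The infarct result at day 5 rests mostly on the C57 arrays, and no test was made of the difference between the strains in this balance. The C57 changes start from low Myh7 values at day 0, down to 4.90 on infarct replicate 3, whose array median was 4.28. In MRL infarct tissue at day 5 Myh7 itself was not higher: by limma it changed by -0.57 and Myh6 by -1.26. Quantile normalization left both infarct changes short of the threshold, as did the loss of single arrays in 5 cases at day 1 and 7 at day 5. Within a single strain the exact test cannot give a p below 0.0286.

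The balance of Acta1 to Actc1 moved toward Acta1 in both regions and at both days. In infarct tissue it was 0.81 higher than at day 0 at day 1 (0.92 in MRL and 0.69 in C57) and 1.08 higher at day 5 (0.52 in MRL and 1.64 in C57), with adjusted p of 0.0343 and 0.0294 by the exact permutation test. In noninfarct tissue it was 0.45 higher at day 1 (0.67 in MRL and 0.23 in C57) and 1.17 higher at day 5 (0.99 in MRL and 1.36 in C57), with adjusted p of 0.0343 and 0.0294 by the same exact permutation test. Without the C57 array that stood apart the day 5 change was 0.92, still called, and its C57 part was 0.85. The day 5 changes held when any single array was left out; the day 1 changes did not, failing in 6 cases in infarct and 5 in noninfarct tissue, and under quantile normalization in both (0.72 and 0.37, adjusted p 0.0514 each, exact permutation test). The noninfarct difference of 0.72 between day 5 and day 1 did not pass (adjusted p = 0.0581, exact permutation test).

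Between the strains the actin balance lay 2.11 higher in MRL than in C57 in infarct tissue, averaged over the 3 days (2.41 at day 0, 2.63 at day 1 and 1.29 at day 5). In noninfarct tissue it lay 1.84 higher (1.82, 2.25 and 1.44 at the same days). Both passed the exact permutation test within days (adjusted p 2.33e-05 and 4.66e-05, over 4 tests), the first with the smallest p the design allows, 5.8309e-06 before adjustment. The myosin balance lay 1.07 and 1.13 higher in MRL, which did not pass (adjusted p 0.0625 and 0.0512, exact permutation test). With the other Myh6 probe set those differences were 0.47 and 0.79.

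Set against 20 other cardiomyocyte genes, among them the troponins Tnnt2 and Tnni3 and the calcium pump gene Atp2a2, the actins and Myh7 stood out upward. In infarct tissue at day 5 the list itself had fallen: limma called 18 of its 20 genes lower in MRL and 16 of 20 in C57, with median changes of -1.64 and -1.62, and called none higher. Relative to the list's mean on the same array, Acta1 was 2.51 higher at day 5 than at day 0 (2.03 in MRL and 2.99 in C57), Myh7 was 2.13 higher (1.13 in MRL and 3.13 in C57) and Actc1 was 1.43 higher (1.51 in MRL and 1.35 in C57). Actc1 and Acta1 have 1 probe set each, and the probe sets of Myh6 differed in this measure by about as much as Actc1 changed, as given below. The relative rises of Acta1, Myh7 and Actc1 each passed the exact permutation test (adjusted p between 0.0037 and 0.0070, over 24 tests). Actc1 itself was not called there by limma, with changes of -0.19 in MRL and -0.27 in C57, while the list fell. The share of all genes that would pass against this list was not counted.

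At day 1 in infarct tissue the relative changes were 1.50 for Acta1, 2.67 for Myh7 and 0.70 for Actc1. In noninfarct tissue at day 5 they were 1.73 for Acta1 and 0.56 for Actc1, and at day 1 they were 0.64 for Acta1, 1.58 for Myh7 and 0.19 for Actc1. All of these passed the exact permutation test; Myh7 in noninfarct tissue at day 5 did not, with 0.79 (adjusted p = 0.242). For Myl2, which has 1 probe set, the relative changes were between 0.13 and 0.45 over the 4 comparisons and passed as well. No direction is given for Myh6 and Myl3. The main Myh6 probe set was 0.46 higher relative to the list in infarct tissue at day 5 and the other gave -1.002. Each was past the threshold (adjusted p 0.0037 and 0.0042, exact permutation test). For Myl3 the values were 0.33 and -0.15. The cause of this disagreement between probe sets was not tested.

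**Figure D4:**
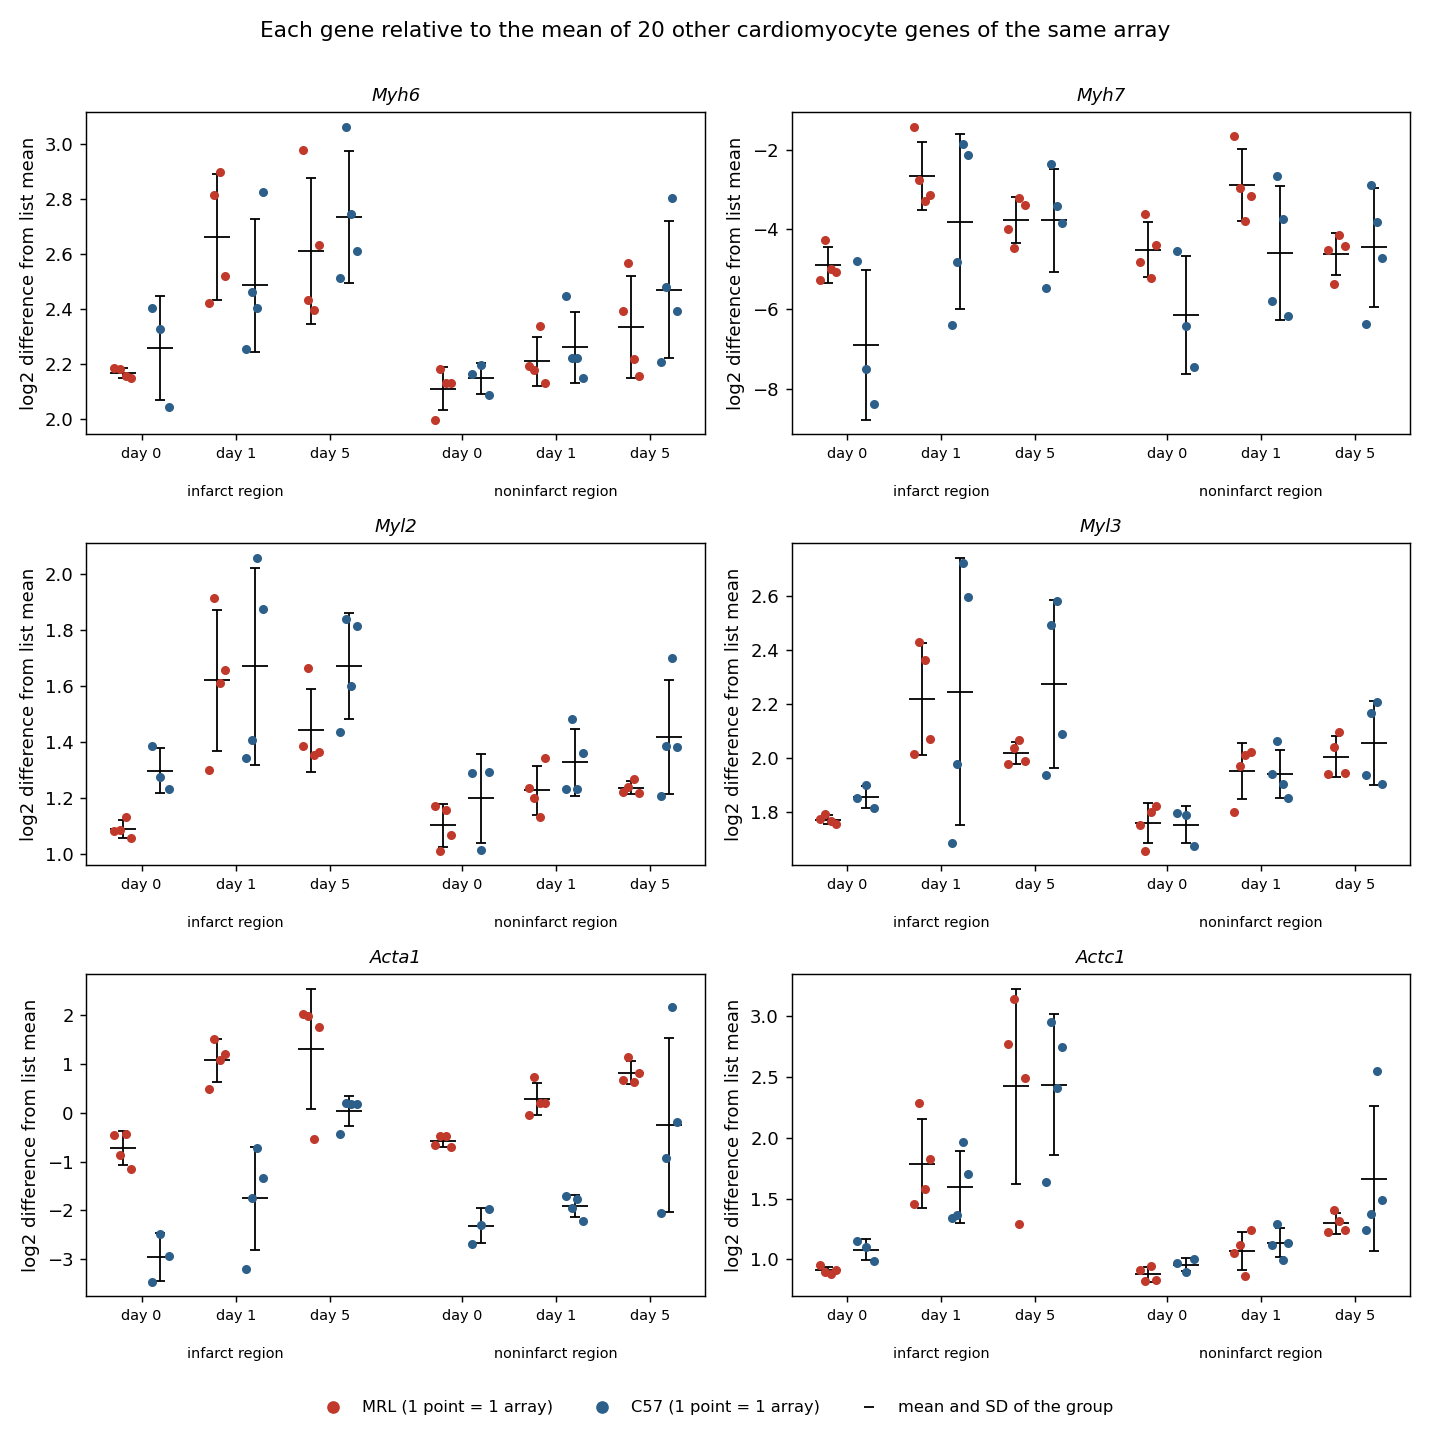
log2 value of each of the 6 genes minus the mean log2 value of 20 other cardiomyocyte genes on the same array (vertical axes), by region and day, with MRL in red left of C57 in blue, points for arrays, bars for means and whiskers for the SD. Acta1 and Actc1 are higher at day 5 than at day 0 in infarct tissue of both strains, by 2.51 and 1.43 on average.

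**Figure D5:**
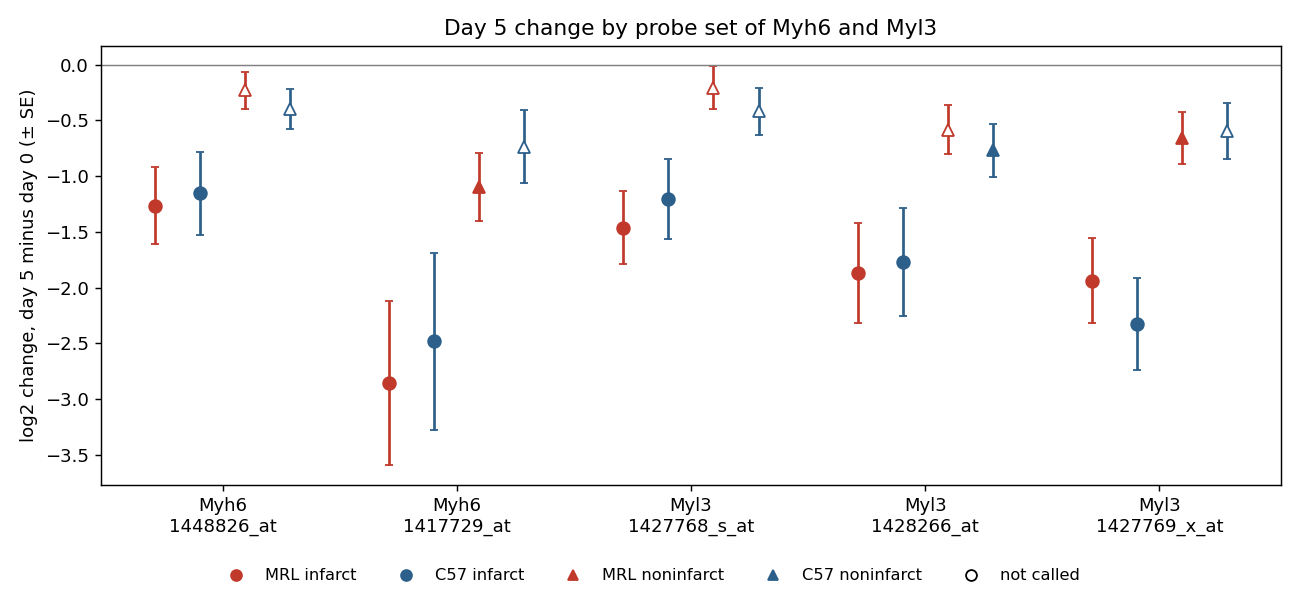
log2 difference of day 5 minus day 0 (vertical axis) in the 2 probe sets of Myh6 and the 3 of Myl3, in infarct (circles) and noninfarct tissue (triangles). MRL is in red left of C57 in blue, whiskers are the SE of the limma fit and filled symbols have an adjusted p under 0.05. The second Myh6 probe set fell by 2.85 in MRL and 2.48 in C57 in infarct tissue, against 1.26 and 1.15 for the first.

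Among the 20 other cardiomyocyte genes the largest falls at day 5 in infarct tissue included Hrc, a calcium-binding protein of the sarcoplasmic reticulum, with changes of -3.60 in MRL and -3.43 in C57, and Tcap, which caps titin at the Z-disc, with -2.86 and -3.21. Nebl, a nebulin relative of the Z-disc, fell by 3.54 in MRL. By their main probe sets, Myh6, Myl2 and Myl3 fell by less than the list's medians of -1.64 and -1.62 in both strains. By every other probe set of Myh6 and Myl3 the falls were larger than these medians in both strains, so no order against the list is given for these genes. In noninfarct tissue at day 5 limma called 1 of the 20 genes lower in MRL and 7 in C57.

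The other 4 actins, which serve smooth muscle and the cytoskeleton, rose at day 5 in infarct tissue: limma called 4 of 4 in MRL and 3 of 4 in C57. Acta2, smooth muscle alpha-actin, was 2.75 ± 0.31 higher in MRL and 2.28 ± 0.33 higher in C57. Actg1 was 2.08 and 1.63 higher and Actb 1.57 and 1.21 higher; both encode cytoplasmic actins. Actg2, the gamma-actin of enteric smooth muscle, was 1.02 higher in MRL, and in C57 its difference of 0.67 was not called. Acta2, Actg1 and Actb were also called higher at day 5 in noninfarct tissue of both strains (3 of 4 each), and at day 1 in infarct tissue 2 of 4 rose in MRL (Actg1 1.53 and Actb 1.25) and 0 of 4 were called in C57.

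Few of the other muscle myosin heavy chains were measurable, with 3 of 8 tested. Myh11, the smooth muscle heavy chain, fell in C57 infarct tissue by 1.68 at day 1 and by 1.14 at day 5. In MRL its changes of -0.92 and -0.58 were not called. Myh3, the embryonic heavy chain, fell by 0.46 in MRL infarct tissue at day 5, and its change of -0.48 in C57 was not called. The difference between the strains' changes was not called for either gene. Of the nonmuscle heavy chains, Myh9 rose by 2.45 in MRL and 2.43 in C57 at day 5 in infarct tissue, and Myh14 fell by 1.78 and 1.70. Among the other light chains, of which 6 of 10 were tested, Myl9 and Myl12b, both of smooth muscle and nonmuscle myosin, rose at day 5 in infarct tissue, Myl9 by 1.97 in MRL and 2.39 in C57 and Myl12b by 1.30 and 1.65.

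Some of these genes also differed between the strains. Acta2 was lower in MRL than in C57 at day 1 in noninfarct tissue (-0.96 ± 0.20, limma adjusted p = 0.010), the 1 call among the other actins. Myl1, a light chain of fast skeletal muscle, was higher in MRL than in C57 at day 0 in infarct tissue (1.57 ± 0.37, limma adjusted p = 0.036). In noninfarct tissue it was higher in MRL at each day, by 1.29 ± 0.19 at day 0, 1.51 ± 0.17 at day 1 and 1.12 ± 0.17 at day 5 (adjusted p 0.00030, 2.0e-05 and 0.0011). Myl9 was higher in MRL at day 1, by 2.52 in infarct and 2.19 in noninfarct tissue (adjusted p 0.017 and 0.0062). Smyd1, a methyltransferase needed for myosin assembly in muscle, was 1.94 ± 0.33, 1.97 and 1.96 higher in MRL noninfarct tissue at day 0, day 1 and day 5. In infarct tissue at day 5 Smyd1 fell by 3.16 ± 0.55 in MRL and by 3.10 ± 0.59 in C57, and Myom2, an M-band protein, by 1.98 and 1.91.

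Of 26 regulators listed for these genes, 20 were tested in infarct tissue. At day 5 limma called 4 higher and 11 lower in MRL, and 3 higher and 7 lower in C57, where 46.9% and 42.7% of all probe sets were called. Mrtfa, a coactivator of serum response factor, was 1.63 higher in MRL and 1.52 higher in C57, while Myocd, the cardiac and smooth muscle coactivator of the same factor, was 1.95 lower in MRL (-1.95). In C57 the heart transcription factors Tbx5 and Nkx2-5 fell by 1.49 and 1.27. Dio2, the enzyme that activates thyroid hormone in tissue, was 1.36 higher in C57 infarct tissue and 1.94 higher in MRL noninfarct tissue at day 5. These counts describe the list, which was put together with earlier results of these data known.

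Across the 46 arrays the 6 genes followed different partners. The Pearson correlation of Myl2 with Myl3 was 0.97, that of Myh6 with Myl3 was 0.95 and that of Myh6 with Myl2 was 0.94; the 3 genes share their low values on the day 5 infarct arrays. Myh6 with Myh7 gave 0.15 and Acta1 with Actc1 gave -0.09. Among 7627 other genes the closest to Myh6 were Tnni3 (0.97), Ckmt2 (0.96) and Pde4dip (0.96). Myl2 had Cox6a2 (0.98), Ckmt2 (0.97) and Tnni3 (0.96), and Myl3 had Ckmt2 (0.97), Cox6a2 (0.97) and Slc16a1 (0.96). These are mostly sarcomere and mitochondrial genes of muscle.

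The closest genes to Acta1 were Wdfy1 (0.87), Rbfox2 (0.86) and Wdr48 (0.84). After the group means were removed those correlations were 0.46, 0.69 and 0.72. Myh7 had no close partner, with Serpinb6b (0.65), Pkp2 (0.65) and Pwp1 (0.64) at the top. For Actc1 the first were H2-Ea (0.79), Atp2a2 (0.76) and Cacnb1 (0.72). The arrays share their groups and their normalization, so these correlations are descriptions of 46 arrays and carry no test.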

How the data were processed

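The authors deposited 1 linear intensity per probe set and array, made with GCRMA (background correction, normalization and summary of the probes; version not given in the sources used here), per the submitters' processing notes. Such values are relative to the other probe sets of the arrays. log2 of each deposited value was taken with no pseudocount, since the lowest value was 1.03; array medians lay between 18.6 and 22.3. Of 22690 probe sets, 64 controls were left out; 20380 had 1 gene symbol in the platform annotation, 691 several and 1555 none, and 20351 matched a RefSeq record by Entrez ID.

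Linear models with 1 mean per group were fitted in R 4.3.3 by limma 3.58.1, using lmFit and then eBayes; p-values are two-sided and adjusted by Benjamini-Hochberg over all tested probe sets, with calls at an adjusted p under 0.05. The fits were made within a region on 23 arrays (12834 probe sets in infarct, 12344 in noninfarct tissue) and between regions on 46 arrays (13138). In all, 28 comparisons were made; those with the same day 0 arrays share these arrays. Isoform balances and values relative to other cardiomyocyte genes were tested by exact permutation in Python 3.11.15 with numpy 2.4.6. The fits were tested on simulated data.

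The genes, lists and alternatives were chosen with earlier results of these data known. All 6 genes are named in every comparison, from each other list up to 4 called genes with the largest change, and for each gene the 3 genes with the highest correlation over 46 arrays. Alternatives were no filter, quantile normalization, centring on array medians, an offset of 32, array weights, all arrays in one fit, other probe sets, a replicate block, and leaving out single arrays or the arrays that stood apart. Whether the replicate number pairs arrays of both regions was checked from the correlation of their deviations from the group means: every pair was over 0.1 only for C57 day 0 (0.23 to 0.43) and MRL day 1 (0.34 to 0.56), where the block changed no call. The p-values measure the spread between these arrays.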

Additional observations from a re-analysis of the deposited data

Results flagged for a closer look

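In 3 of the 60 groups of 4 arrays tested, 1 array lay far from the others; chance gives about 1 in 20 groups. Myh6 read 14.28 in the C57 day 5 noninfarct array of replicate 3, while the other arrays of the group read 15.18 to 15.36. Myl2 read 13.18 in the same array, while the others read 14.17 to 14.36. This array is one of the pair that stood apart from their groups over all probe sets. Myh7 read 11.43 in the MRL day 1 infarct array of replicate 1, while the others read 9.31 to 9.55; without it the day 1 difference from day 0 in MRL infarct tissue was 1.08.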

How the results depend on the processing

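Of 48 tests of a gene against day 0, 10 passed; with array weights 18 did, and 9 to 13 when single arrays were left out. Between day 5 and day 1, 7 of 24 passed, 11 with array weights and 4 to 10 with single arrays left out. Between the strains 4 of 36 passed, 7 with array weights and 3 to 5 with single arrays left out. Between the regions 3 of 36 passed, 9 with array weights, 5 with the replicate block, 6 without the pair of arrays that stood apart, 7 without these and C57 day 5 infarct replicate 1, and 0 to 7 with single arrays left out. The replicate block moved no other count of calls by over 1.5 times. The test of strain by infarction gave 0 of 24 throughout. Over all probe sets, 0.98% to 46.9% were called in the comparisons with day 0 and 12% to 34.2% between day 5 and day 1. Between the strains the share was 0.686% to 2.77%, and between the regions 0% to 14%. Whether the 6 genes were called more often than all probe sets was not tested. The myosin balance in infarct tissue was 2.04 at day 1 and 1.23 at day 5 under quantile normalization (adjusted p 0.0514 and 0.114, exact permutation test) and 1.54 at day 5 without the pair of arrays (adjusted p 0.0588, exact permutation test), and the actin balance at day 1 was 0.72 in infarct and 0.37 in noninfarct tissue under quantile normalization (adjusted p 0.0514 each, exact permutation test). In C57 alone the actin balance changed in infarct tissue by 1.64 at day 5 against day 0 and by 0.95 against day 1. In MRL alone the actin balance changed by 0.52 and -0.40 in infarct tissue and by 0.99 and 0.32 in noninfarct tissue, and the myosin balance by 0.69 at day 5 against day 0 in infarct tissue and by -0.33 and -1.85 in noninfarct tissue at day 5 against day 0 and day 1. With single arrays left out the myosin balance ranged from 1.97 to 2.80 and from 1.35 to 2.16 in infarct tissue at day 1 and day 5, from 1.15 to 1.87 in noninfarct tissue at day 1, and between the strains from 0.80 to 1.39 and from 0.92 to 1.40; the actin balance ranged from 0.66 to 1.01 in infarct and from 0.36 to 0.53 in noninfarct tissue at day 1, and from 0.46 to 0.95 in noninfarct tissue between day 5 and day 1. With the next probe set 6 values relative to the cardiomyocyte genes changed sign: Myh6 to -0.54 and -1.002 in infarct and to -0.20 and -0.33 in noninfarct tissue at day 1 and day 5, and Myl3 at day 5 to -0.15 in infarct and -0.091 in noninfarct tissue. The causes were not tested. Quantile normalization shifted the median of all probe sets by -0.14 in C57 infarct tissue at day 5, and the Myh6 fall there was 0.68 under it. In all, 3834 repeated values were counted as unchanged, and 107 that had passed the threshold fell short of it. Unchanged values mostly had the same direction and side of the threshold. The count also took in uncalled values with a small change of sign and counts of calls within 1.5 times. Values of a single strain were counted as unchanged if they lay within the spread between replicates. 3 or 4 arrays a group limit the precision.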
